A study of Mus musculus with 4 samples.

Results

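Wnt/beta-catenin signaling is read out by a set of genes that beta-catenin and its TCF/LEF partners switch on, many of which act back on the pathway. Wnt or Norrin binding to Frizzled and LRP receptors keeps beta-catenin from being degraded, and beta-catenin then acts in the nucleus with LEF1, TCF7 and related factors. In brain endothelial cells this pathway is known to drive vessel growth into the neural tissue and to establish the blood-brain barrier. The genes described here are 10 targets and feedback regulators, namely Axin2, Apcdd1, Nkd1, Lef1, Tcf7, Notum, Rnf43, Znrf3, Sp5 and Tnfrsf19. They were picked by symbol and were all found among the 21578 genes of the deposited count tables. The study chose Lef1, Axin2, Apcdd1 and Nkd1 for RT-qPCR, which is not analysed here.

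The samples were brain endothelial cells of C57BL/6 mice at P0 (postnatal day 0), with 2 libraries of Pd1fl/fl mice and 2 of Pd1cKO-Tie2 mice. Both genotypes carry floxed Pd1 alleles, and the Pd1cKO-Tie2 mice also carry Tie2-Cre, whose recombinase is active in endothelial cells and also in blood cells of several lineages. The cells were purified by flow cytometry, for which the methods name antibodies to CD31 and CD45. How many mice gave each library is not given in the sources used here, so the p-values measure the spread between these libraries, which may be technical. Total counts ran from 13715837 to 24147311 reads per library. The deepest was Pd1cKO-Tie2 replicate 1, and the second Pd1cKO-Tie2 library, numbered 2 in the count tables but in none of the sample labels of its genotype, is called the unnumbered library. Pdcd1, the deleted gene, was read 32 times in the first Pd1fl/fl replicate and 0 times in both Pd1cKO-Tie2 libraries, and was not listed for the second Pd1fl/fl replicate, so the labels could not be checked by it. Endothelial markers had the highest sum of all cell type lists in every library, and Pd1fl/fl replicate 1 stood apart by its neutrophil transcripts. Levels are given as TMM-scaled CPM, that is, reads of a gene relative to the library size (CPM) after edgeR's TMM correction. A listed count of 0 allows up to 3 counts, or 0.125 to 0.219 CPM, which covers counting error only. Where no table listed a gene for a library, its count was taken as 0 but can be up to 4.

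Short stretches in front of start sites were read for the TCF/LEF core motif CTTTGAT, searched on both strands (ATCAAAG on the other). RefSeq windows of 300 bases, from 250 before to 50 after a start site on GRCm38.p6, were on hand for 7 of the 10 genes, with 13 windows in all. The motif was found in 2 genes, Sp5 and Tnfrsf19, and 1160 of 27025 genes in the whole table (4.29%) had it in at least 1 window. The 250 bases before the Sp5 start (chr2:70474673-70474922, plus strand) hold it 104 bases upstream. Those before a Tnfrsf19 start that lies inside the gene (chr14:61037988-61038237, minus strand) hold it 202 bases upstream. They are shown with the stretch before the RefSeq start of Nkd1 (chr8:88527383-88527632, plus strand), whose window holds no match. This start, too, lies inside the gene, which begins at 88521354. Nkd1 was the member with the largest difference among those with a p under 0.05. Capitals mark the motif.
Sp5: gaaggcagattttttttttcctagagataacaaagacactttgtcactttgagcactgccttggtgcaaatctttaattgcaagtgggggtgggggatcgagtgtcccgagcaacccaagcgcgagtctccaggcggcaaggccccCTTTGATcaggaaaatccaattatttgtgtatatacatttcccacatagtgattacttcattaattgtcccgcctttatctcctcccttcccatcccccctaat
Tnfrsf19: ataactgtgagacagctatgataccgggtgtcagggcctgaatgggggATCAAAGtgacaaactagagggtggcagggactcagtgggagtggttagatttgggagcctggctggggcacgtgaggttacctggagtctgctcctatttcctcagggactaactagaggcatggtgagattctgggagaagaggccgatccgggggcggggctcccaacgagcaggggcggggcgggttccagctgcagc
Nkd1: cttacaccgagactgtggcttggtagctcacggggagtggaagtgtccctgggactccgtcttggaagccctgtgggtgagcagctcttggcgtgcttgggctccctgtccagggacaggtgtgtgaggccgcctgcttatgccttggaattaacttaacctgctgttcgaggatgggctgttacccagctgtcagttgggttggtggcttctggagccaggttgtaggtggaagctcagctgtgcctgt
A match is a description of these letters and not a binding site.

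The genotypes were compared to ask whether Wnt target genes differed between endothelial cells of the 2 genotypes, Pd1cKO-Tie2 (mutant) and Pd1fl/fl (control). Apcdd1 and Nkd1, which both encode Wnt inhibitors, were 1.46-fold and 1.88-fold higher in the mutant libraries, each with an unadjusted p under 0.05 in edgeR's quasi-likelihood test. With levels scaled to endothelial markers only Nkd1, of the tested members, had such a p. Lef1, Tcf7, Znrf3 and Tnfrsf19 had log2 fold changes of 0.09 to 0.18, which turned to -0.24 to -0.13 on a scaling to endothelial markers, and Axin2, Notum and Sp5, which had few reads, varied too widely to place. None of the 10 genes was lower with an unadjusted p under 0.05. Of the 10, 9 passed edgeR's filter on low counts and were tested, and Rnf43 was not. The study's methods call a gene changed at 2-fold or more and a p of at most 0.05. No tested member met this criterion, and 4.02% of all 15909 tested genes did. An unadjusted p under 0.05 was found for 2 of the 9 tested members and for 6.39% of all tested genes. Both members were higher in mutant cells, as were 2.84% of all tested genes at that p, and 3.55% were lower. The mutant libraries were both higher than either control library for Apcdd1, Nkd1, Lef1 and Sp5, and for 17.7% of all tested genes. They were both lower for none of the tested members and for 18.1% of all tested genes. The median log2 fold change was 0.17 over the 9 tested members and -0.0038 over all tested genes. Once adjusted for the number of genes, 0 edgeR p-values were under 0.05, of 1016 that were so unadjusted, and DESeq2 called 114 genes.

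**Figure D1:**
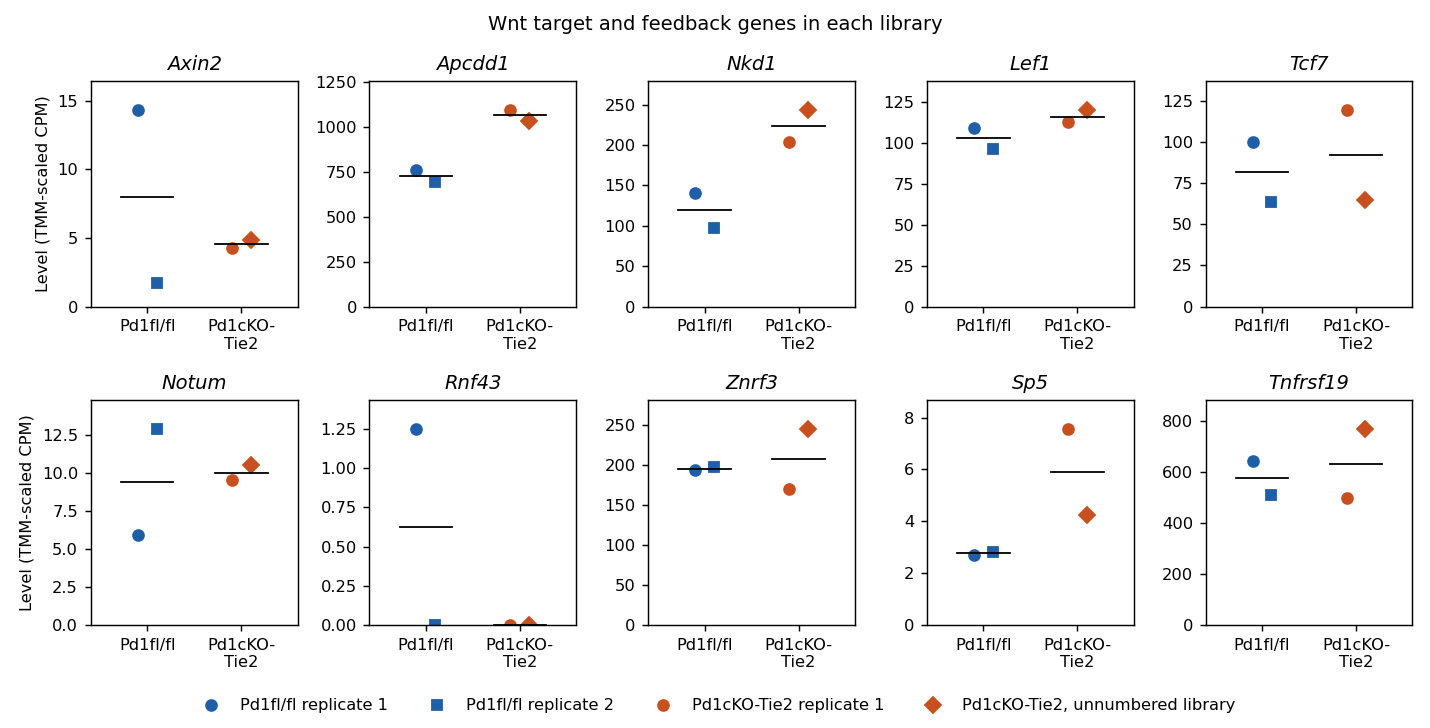
Level of each of the 10 genes in each library (vertical axes, TMM-scaled CPM, each starting at 0) by genotype, with a black line at the mean of the 2 libraries. For Apcdd1 and Nkd1 both Pd1cKO-Tie2 points lie above both Pd1fl/fl points, and for Axin2 the Pd1fl/fl libraries lie at 14.3 and 1.69 CPM on either side of the Pd1cKO-Tie2 libraries.

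Apcdd1 encodes a membrane-bound Wnt inhibitor that is itself a target of the pathway and is known in vessels of the retina and brain. The gene (ENSMUSG00000071847) is on the plus strand of chromosome 18, from 62922327 to 62953195 (GRCm38, as for all positions here). It had 11018 and 9858 counts in control replicates 1 and 2, 26168 in mutant replicate 1 and 14182 in the unnumbered library. This is 763 and 693 CPM in control and 1093 and 1037 CPM in mutant libraries. The groups did not overlap, and the means of 728 ± 49.3 and 1065 ± 39.8 CPM (SD, n = 2) lay farther apart than either SD. On the log2 scale the difference was 0.55 (standard error 0.12, 95% interval 0.25 to 0.85). The quasi-likelihood test gave an unadjusted p of 0.00424 (rank 46 of the tested genes), which became 0.735 when adjusted. DESeq2 on every gene with a count gave an adjusted p of 0.0135, and at an adjusted p under 0.05 it called 0.162% of its genes higher and 0.366% lower. With each library left out in turn the log2 fold change stayed between 0.48 and 0.62.

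Nkd1 (naked cuticle 1) encodes a protein that binds Dishevelled and dampens Wnt signaling, and its transcription is a common readout of the pathway. The gene (ENSMUSG00000031661) lies on chromosome 8 from 88521354 to 88594884 on the plus strand. Its counts were 2041 and 1385 in control, 4895 in mutant replicate 1 and 3331 in the unnumbered library. Scaled to depth, it stood at 141 and 97.4 CPM in control and at 204 and 243 CPM in mutant libraries. The lowest mutant library was 1.45-fold above the highest control library, and the 2 control libraries themselves differed by 1.45-fold. Means and SDs were 119 ± 31.1 and 224 ± 27.6 CPM (n = 2 each). The log2 fold change of 0.91 (standard error 0.23, 95% interval 0.33 to 1.49) fell just short of 2-fold. The unadjusted p was 0.00904 and the adjusted p 0.735 in edgeR's quasi-likelihood test, and DESeq2 gave an adjusted p of 0.0404. With single libraries left out the log2 fold change ranged from 0.67 to 1.20. It passed 2-fold without control replicate 1, at 1.20, and without mutant replicate 1, at 1.04, and Nkd1 then met the study's criterion.

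Lef1 and Tcf7 encode TCF/LEF factors, the DNA-binding partners of beta-catenin, and are both effectors and targets of the pathway. Lef1 (ENSMUSG00000027985, chromosome 3, 131110471 to 131224356, plus strand) was at 109 and 96.3 CPM in control and at 113 and 120 CPM in mutant libraries. The groups did not overlap, but the highest control and the lowest mutant library differed by only 1.03-fold. Its log2 fold change was 0.18 with a 95% interval of -0.28 to 0.64 (edgeR, adjusted p = 1). Tcf7 (ENSMUSG00000000782, chromosome 11, 52252371 to 52283014, minus strand) was at 99.8 and 63.5 CPM in control, at 119 CPM in mutant replicate 1 and at 64.8 CPM in the unnumbered library. The groups overlapped, with 1 high and 1 low library in each genotype. Its log2 fold change was 0.17 (95% interval -0.75 to 1.09), and it was -0.32 without mutant replicate 1. Both genes are also well known in T cells. The 8 T cell markers together came to between 8.93 and 11.8 CPM per library, of which Trbc2 made up 3.39 to 8.58 CPM. Cd3e had a count of 0 in control replicate 2 and mutant replicate 1, and Cd4 was counted in mutant replicate 1 alone. Cd8a had 0 counts in both controls and 27 and 18 in the mutant libraries. It was higher by the study's criterion, as were 1.41% of all tested genes, but its adjusted p in edgeR was 0.738. Against a limit of 3 counts per library it was at least 5.83-fold higher. Of the 5 tested T cell markers, the other 4 overlapped between the genotypes. Among all tested genes, 17.7% had both mutant libraries above either control, as Cd8a did. The part of T cells in the levels of Lef1 and Tcf7 was not tested. A stretch of 1208 of the 8788 exon bases of Lef1 also lies in an annotated gene on the other strand, and whether counting used strand is not given in the sources used here.

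Znrf3 and Rnf43 encode membrane ubiquitin ligases that remove Frizzled receptors from the cell surface and so close a feedback loop. Znrf3 (ENSMUSG00000041961, chromosome 11, 5276324 to 5444847, minus strand) stood at 194 and 197 CPM in control, at 170 CPM in mutant replicate 1 and at 245 CPM in the unnumbered library. The mutant libraries thus lay on either side of a narrow pair of control libraries, with means of 195 ± 2.07 and 207 ± 52.4 CPM (SD, n = 2). Relative to control, its log2 fold change was 0.09, with a 95% interval of -0.44 to 0.62. Rnf43 (ENSMUSG00000034177, chromosome 11, 87662722 to 87735539, plus strand) was counted 18 times in control replicate 1 and 0 times in both mutant libraries, and was not listed for control replicate 2. It did not pass the filter on low counts, so the main edgeR comparison did not test it. DESeq2 on every gene with a count gave it an unadjusted p of 0.216. Of this pair of ligases, Znrf3 was the one with reads in every library.

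Axin2 and Notum act as negative feedback inside and outside the cell, respectively. Axin2, a scaffold of the complex that degrades beta-catenin, is a widely used target gene of the pathway. The gene (ENSMUSG00000000142) lies on chromosome 11 from 108920349 to 108950783 on the plus strand. Its counts were 206 and 24 in the controls, 102 in the numbered mutant and 66 in the unnumbered one. Its levels were 14.3 and 1.69 CPM in control and 4.26 and 4.82 CPM in mutant libraries. The control libraries differed by 8.45-fold and enclosed the mutant libraries, which differed by 1.13-fold. For Axin2 the log2 fold change of -0.81 had a 95% interval of -3.40 to 1.78 (edgeR, adjusted p = 1). It was 1.43 without control replicate 1 and -1.65 without control replicate 2, so that its sign rested on 1 library. The 5 neutrophil markers came to 721 CPM in control replicate 1 and to at most 1.88 CPM in each of the others. The sums of fibroblast and mural markers were also highest in control replicate 1, at 65.2 and 5704 CPM. They were at most 42.2 and 3816 CPM elsewhere. The part of these cells in the Axin2 level was not tested. Of its 5506 exon bases, 209 lie in an annotated gene on the other strand.

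The genes whose pattern over the 4 libraries was most like that of Axin2 were Gpc3, Zfp991, Taco1, Panx1 and Ggt5. Likeness was the root mean square difference of log2 CPM centred on each gene's own mean, over 11250 genes with a mean of at least 5 CPM, and it ran from 0.238 to 0.315 for these genes. Gpc3, the closest, was at 71 and 11 CPM in control and at 33.1 and 35.1 CPM in mutant libraries. With so few libraries such a likeness is only a description.

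Notum encodes a secreted enzyme that inactivates Wnt ligands by removing their lipid. The gene (ENSMUSG00000042988) lies on chromosome 11 from 120653788 to 120661175 on the minus strand. It was at 5.95 and 12.9 CPM in control and at 9.56 and 10.5 CPM in mutant libraries. As for Axin2, the control libraries enclosed the mutant libraries, but here control replicate 1 was the low one. For Notum the log2 fold change was 0.08 (95% interval -1.35 to 1.52), and 918 of the 2408 exon bases lie in annotated genes on the other strand.

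Sp5 and Tnfrsf19 are target genes with other roles. Sp5 encodes a zinc finger factor of the Sp family and is a direct target in many embryonic tissues. The gene (ENSMUSG00000075304) lies on chromosome 2 from 70474923 to 70477729 on the plus strand, next to the promoter stretch shown above. It had 39 and 40 counts in control, 181 in mutant replicate 1 and 58 in the unnumbered library, or 2.7, 2.81, 7.56 and 4.24 CPM. Both mutant libraries were above both control libraries, and they differed from each other by 1.78-fold. The log2 fold change of 1.10 was the largest of the 9 tested members, but its 95% interval ran from -0.94 to 3.14 (edgeR, adjusted p = 0.975). It was 0.63 without mutant replicate 1.

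Tnfrsf19, also called TROY, encodes a receptor of the TNF receptor superfamily that is expressed in brain endothelium. The gene (ENSMUSG00000060548) lies on chromosome 14 from 60963834 to 61046855 on the minus strand. It was at 643 and 511 CPM in control, at 497 CPM in mutant replicate 1 and at 770 CPM in the unnumbered library. The mutant libraries held both the lowest and the highest value, and the 1.55-fold difference between them was larger than any shift between the means of 577 ± 93.4 and 634 ± 194 CPM (SD, n = 2). Tnfrsf19 had a log2 fold change of 0.13, with a 95% interval of -0.47 to 0.73.

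**Figure D2:**
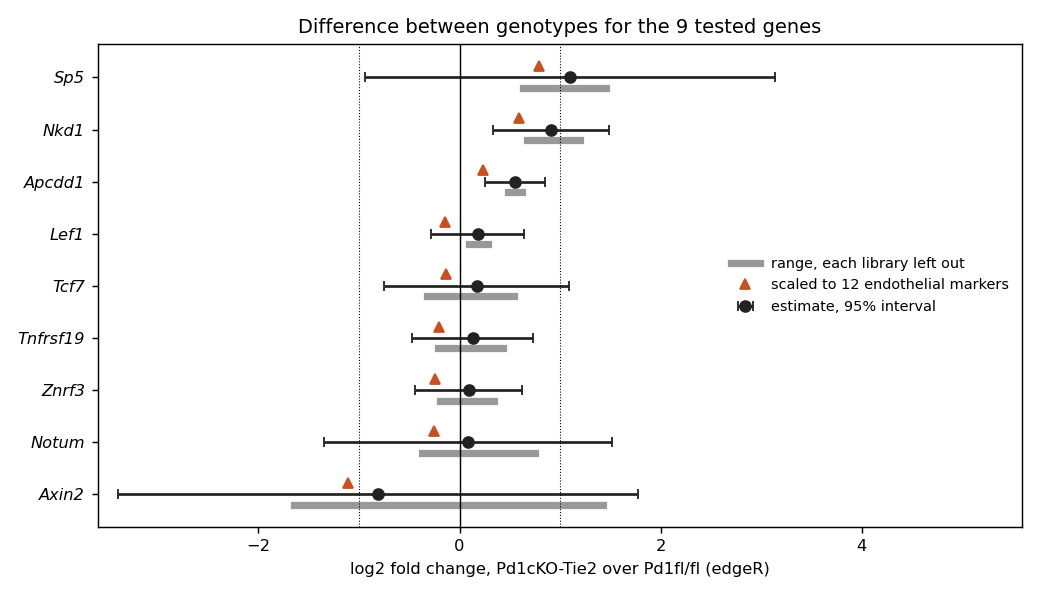
Log2 fold change of Pd1cKO-Tie2 over Pd1fl/fl (horizontal axis) for the 9 tested genes, with the edgeR estimate and its 95% interval (black), the range with each library left out in turn (grey) and the estimate after scaling to endothelial markers (orange). Dotted lines mark a 2-fold change, and the intervals of Apcdd1 and Nkd1 alone lie wholly above 0.

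Levels between genes were compared per kilobase of exon, taken from GENCODE M21. For Apcdd1 and Tnfrsf19 the gene positions that came with the counts differ from those of GENCODE M21. Their lengths may thus differ from those of the exons counted. Tnfrsf19 was the most abundant, with a mean of 122 CPM per kilobase in control and 134 in mutant cells. Apcdd1 came next at 56.5 and 82.6 CPM per kilobase, and Nkd1, Tcf7 and Znrf3 followed between 24.7 and 49.1. The libraries of these last genes overlapped, so the order among Nkd1, Tcf7 and Znrf3 was not resolved. Lef1 was at 11.7 and 13.2 CPM per kilobase, below every library of Znrf3. Notum, Sp5 and Axin2 lay lower, at 3.92, 1.31 and 1.45 CPM per kilobase in control, and the libraries of Sp5 overlapped those of both others. Rnf43 was last at 0.095 CPM per kilobase in control, from 1 library. All 10 genes kept their rank when the longest transcript replaced the union of exons as the length. The gap between Znrf3 and Lef1 depended on the length used, however. Their means over all libraries were 25.5 and 12.5 CPM per kilobase by exon union, but 31.9 and 30 by longest transcript.

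**Figure D3:**
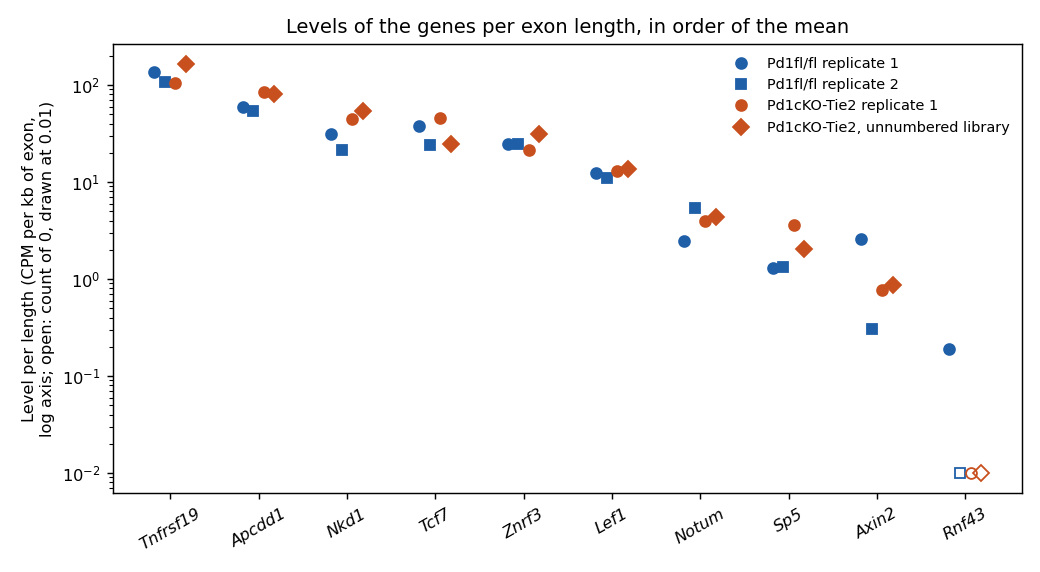
Level per length of the 10 genes in each library (vertical axis, CPM per kilobase of exon, log scale), in order of the mean over the libraries. Tnfrsf19 lies highest, Axin2 and Rnf43 lowest, and the open symbols of Rnf43 are counts of 0 drawn at 0.01.

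The endothelial markers were themselves higher in the mutant libraries. For 12 of the 12 markers, among them Pecam1, Cdh5 and Kdr, the mutant libraries were both higher than either control, as for 17.7% of all tested genes. In edgeR 6 of the 12 were higher with an unadjusted p under 0.05, beside 2.84% of all tested genes. With adjusted p-values 0 were under 0.05. The median log2 fold change of the markers was 0.34. Their summed level was 6849 and 6586 CPM in control and 8154 and 8665 CPM in mutant libraries. The 8 markers of radial glia and astrocytes summed to 936 and 914 CPM in control and to 606 and 434 CPM in mutant libraries. The 7 of microglia and myeloid cells summed to 1055 and 1410 CPM in control and to 445 and 916 CPM in mutant libraries. The part of these shifts in the glial and myeloid lists in the values of the members was not tested. In these bulk samples fewer cells of a type and less RNA per cell cannot be told apart.

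The sums of mural markers ranged from 3729 to 5704 CPM, of neuronal markers from 903 to 1328 CPM and of erythroid markers from 547 to 1060 CPM. Those of oligodendrocyte precursors ranged from 87.5 to 182 CPM and of fibroblasts from 14.8 to 65.2 CPM. For each of these sums the libraries of the 2 genotypes overlapped. Most of the mural sum was Rgs5, at 3213 to 4906 CPM. Of the 6 tested mural markers, 0 had a log2 fold change above 0, and their median was -0.34. For 3 of these 6 the mutant libraries were both lower than either control, as for 18.1% of all tested genes. The part of mural cells in the values of the members was not tested.

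**Figure D4:**
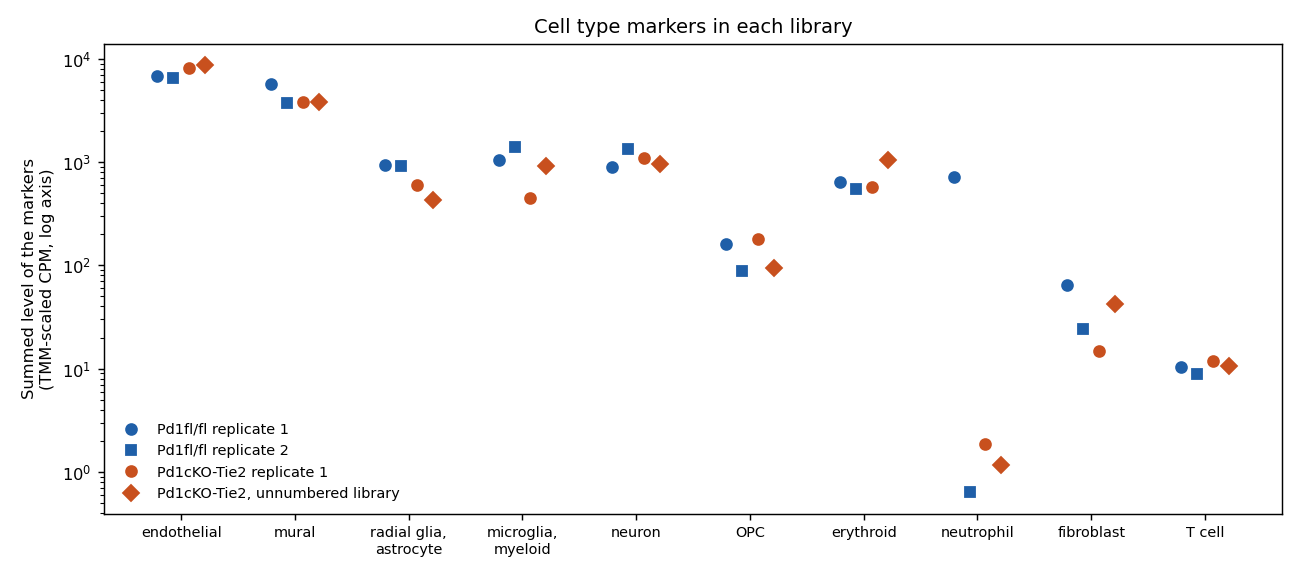
Summed level of each cell type's markers in each library (vertical axis, TMM-scaled CPM, log scale). Endothelial markers are highest and lie higher in both Pd1cKO-Tie2 libraries, the glial and microglial sums lie lower there, and neutrophil markers reach 721 CPM in Pd1fl/fl replicate 1 alone.

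Members were therefore also set against the summed endothelial markers, a scaling chosen after the data were seen. Per 1000 CPM of these markers, Apcdd1 was at 111 and 105 CPM in control and at 134 and 120 CPM in mutant libraries, a ratio of means of 1.17. Nkd1 was at 20.6 and 14.8 in control and at 25.1 and 28.1 in mutant libraries, a ratio of 1.5. Both genes kept the order of their libraries. In an edgeR fit on this scaling, the log2 fold change was 0.23 for Apcdd1 (adjusted p = 0.559) and 0.59 for Nkd1 (adjusted p = 0.451). With an unadjusted p of 0.0373, Nkd1 was the 1 member under 0.05 and higher, against 1.04% of all tested genes. This scaling moved the median difference of all genes by -0.32, so values near that are those of the typical gene. Lef1 changed sides, at 15.9 and 14.6 per 1000 CPM of markers in control and 13.9 and 13.8 in mutant libraries, but its log2 fold change of -0.14 had an adjusted p of 0.841 in edgeR. Znrf3 was at 28.3 and 29.8 in control and at 20.9 and 28.2 in mutant libraries. Sp5 stayed higher, at 0.394 and 0.427 in control and 0.927 and 0.489 in mutant libraries, and Axin2 had a log2 fold change of -1.11. Tcf7, Notum, Znrf3 and Tnfrsf19 also turned from values above 0 to values between -0.25 and -0.13.

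The rest of the pathway was read from 6 further lists with 99 genes, of which 88 were in the tables and 73 could be tested. Of these 73, 2 were higher and 2 lower by the study's criterion, which 1.41% and 2.61% of all tested genes met in these directions, and 12 were higher and 2 lower with an unadjusted p under 0.05, beside 2.84% and 3.55% of all tested genes. Their median log2 fold change of 0.22 turned to -0.10 on the scaling to endothelial markers. Among 26 genes of ligands and their secretion, 17 were in the tables and 9 tested, and none had a p under 0.05. Wnt7b, a ligand made by neural cells that acts on brain endothelium, was at 17.2 and 10.5 CPM in control and 19.1 and 19.4 CPM in mutant libraries, with a log2 fold change of 0.47 (standard error 0.41). Porcn, which attaches the lipid of Wnt ligands, had a log2 fold change of 0.66 (standard error 0.69).

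Among 13 tested receptors and co-receptors, Adgra2 and Fzd9 met the criterion, in opposite directions. Adgra2, also called Gpr124, is a co-receptor for Wnt7 ligands and was at 19.9 and 33.1 CPM in control and at 104 and 97.6 CPM in mutant libraries, or 1.93 higher on the log2 scale (standard error 0.31). With single libraries left out this stayed between 1.61 and 2.34. Its adjusted p was 0.735 in edgeR and 8.67e-05 in DESeq2. Fzd9, a Frizzled receptor, had 30 and 10 counts in control and 0 in both mutant libraries, at least 8.08-fold lower against a limit of 3 counts per library, or at least 4.09-fold from control replicate 2 alone. Its p was 0.05 or more in each of the 3 fits with a library left out that could test it. The median over the list was -0.09, also with Fzd9 at its bound.

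None of 10 tested extracellular inhibitors had a p under 0.05. Dkk3 and Sfrp1 came closest, with log2 fold changes of -0.45 (standard error 0.23) and -0.36 (standard error 0.28). Scaled to endothelial markers, these were -0.76 and -0.69, with unadjusted p of 0.021 and 0.057 in edgeR. The adjusted p of Dkk3 was then 0.435, and 1661 of all 15909 tested genes had an unadjusted p under 0.05 on that scaling. Of 14 tested genes of the cytoplasm, Csnk1a1, a kinase that primes beta-catenin for degradation, was at 739 and 715 CPM in control and 890 and 986 CPM in mutant libraries. Cby1, an antagonist of beta-catenin, had a log2 fold change of 0.74 (standard error 0.27). These were the 2 genes of that list with a p under 0.05, and both were higher, as were 2.84% of all tested genes at that p. Neither p stayed under 0.05 without control replicate 2, nor that of Csnk1a1 without the unnumbered library and that of Cby1 without mutant replicate 1. Scaled to endothelial markers, the log2 fold changes were 0.04 for Csnk1a1 and 0.43 for Cby1, neither with a p under 0.05. Of 11 tested nuclear factors none had a p under 0.05, and the smallest were those of Ctnnbip1, with a log2 fold change of 0.54 (standard error 0.30), and Tcf7l2, with 0.34 (standard error 0.21).

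The list that differed most often held 16 other targets and barrier genes, all tested. Of these, 9 were higher and 1 lower with a p under 0.05, beside 2.84% and 3.55% of all tested genes. For 13 the mutant libraries were both higher than either control, as for 17.7% of all tested genes. The median log2 fold change was 0.36, beside 0.34 for the endothelial markers and 0.04 after scaling to those markers. Plvap, a protein of vessel fenestrae that beta-catenin signaling is known to repress in brain vessels, and Cd44, an adhesion receptor, met the study's criterion. Plvap was at 4.29 and 5.91 CPM in control, at 24.3 CPM in mutant replicate 1 and at 9.36 CPM in the unnumbered library. Cd44 was at 31.2 and 44.3 CPM in control and at 18.4 and 13 CPM in mutant libraries. The p of Plvap was not under 0.05 without mutant replicate 1, where its log2 fold change fell from 1.73 to 0.88, or without control replicate 1. That of Cd44 was not without control replicate 2 or without the unnumbered library. The glucose transporter Slc2a1 and the tight junction gene Cldn5, named after their values were seen, had log2 fold changes of 0.35 (standard error 0.08) and 0.40 (standard error 0.10). After scaling to the endothelial markers neither had a p under 0.05.

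**Figure D5:**
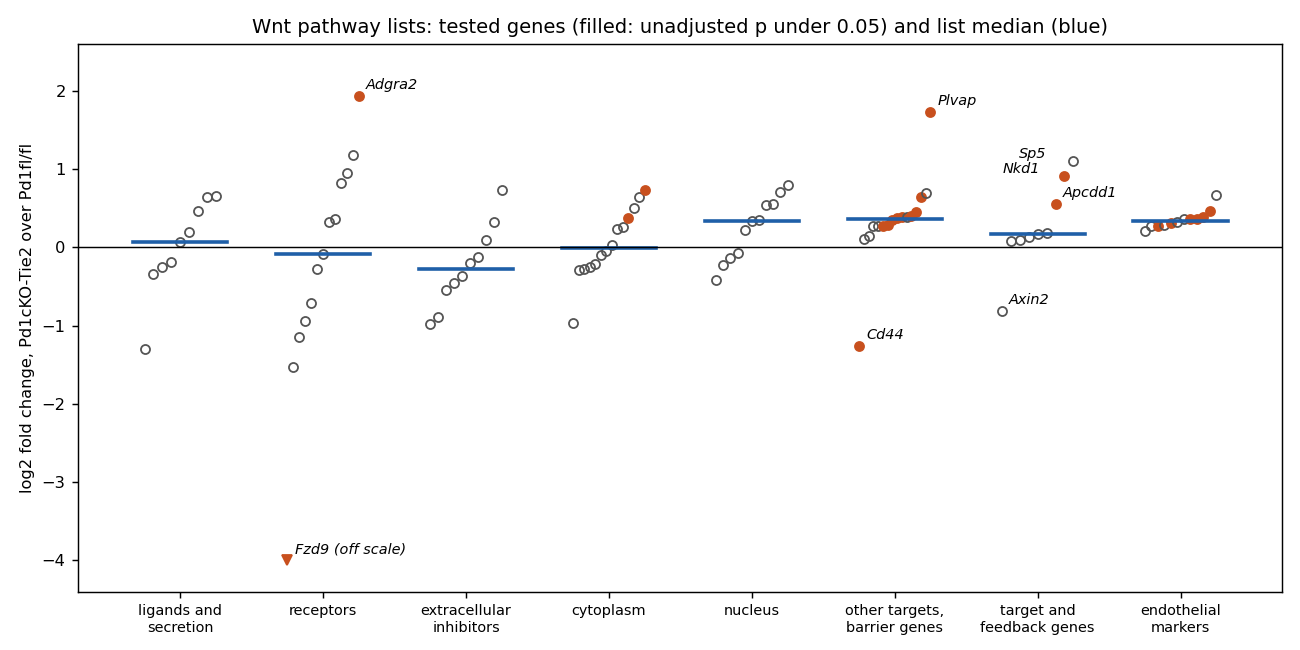
Log2 fold change of Pd1cKO-Tie2 over Pd1fl/fl (vertical axis) for the tested genes of each Wnt pathway list and of the endothelial markers, filled where the unadjusted edgeR p was under 0.05, with the list median in blue. The medians of the other targets (0.36) and of the endothelial markers (0.34) lie close together, and Fzd9, with counts of 0 in both Pd1cKO-Tie2 libraries, is drawn at the lower edge.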

How the data were processed

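RNA-seq libraries came from sorted brain endothelial cells, 2 per genotype. The authors deposited 4 tables of library pairs with raw read counts per gene. The deposited CPM values are counts scaled to library size by the authors, and served only to recover the totals. The submitters' processing notes name Bowtie2 2.2.3, TopHat2 2.0.12, HTSeq 0.6.0 and mm9, but gene positions in the tables are those of GRCm38. The authors' fold change, p-value and call columns were not used. Tables were joined by gene (10 broken lines skipped). Genes absent from a library's tables were taken as 0, where up to 4 counts may be hidden. Total counts were 13715837 to 24147311 per library.

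Genotypes were compared with edgeR 4.0.16 in R 4.3.3 (quasi-likelihood test) after filterByExpr, TMM scaling and no covariate. Adjustment of p was by Benjamini-Hochberg across every tested gene. Standard errors were derived from each fold change and its test statistic. An exact permutation test of 2 against 2 libraries cannot go below p = 0.333. Alternatives were DESeq2 1.42.0, limma-voom (limma 3.58.1), other filters and scalings, a replicate block and each library left out. The fit was tested on simulated counts. The genes, lists and tests were chosen with earlier results of these data known. All members were named, with, in each further list, the genes past the criterion or the 2 of smallest p, and the 5 genes most like Axin2.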

Additional observations from a re-analysis of the deposited data

How the results depend on the processing

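With each library left out in turn, the log2 fold change ranged from -1.65 to 1.43 for Axin2, 0.67 to 1.20 for Nkd1, -0.32 to 0.54 for Tcf7, -0.37 to 0.75 for Notum, -0.19 to 0.34 for Znrf3 and -0.21 to 0.43 for Tnfrsf19. Apcdd1 (0.48 to 0.62), Lef1 (0.09 to 0.28) and Sp5 (0.63 to 1.46) kept their direction. Between 0 and 1 member (Nkd1) then met the study's criterion, as did 141 to 486 genes higher (224 with all libraries), and 2 to 5 further pathway genes higher (5 without Pd1fl/fl replicate 1) and 0 to 2 lower (0 without the unnumbered library), against 2 each with all libraries. Without Pd1fl/fl replicate 2 the 486 genes were reached, and without Pd1cKO-Tie2 replicate 1 the 141. Genes higher by the criterion were 142 with at least 10 counts in every library and 137 with limma-voom. With either of these settings 1 further pathway gene was lower. DESeq2 on all 21578 genes gave 632 genes lower (416 in edgeR) and 4 further pathway genes lower, and on the genes that passed the edgeR filter 468 and 2. Scaling to the endothelial markers gave 143 higher and 804 lower genes (224 and 416 with TMM), 1 further pathway gene higher, 1 member with a p under 0.05 and log2 fold changes of -0.14 for Lef1, -0.13 for Tcf7, -0.25 for Notum, -0.24 for Znrf3 and -0.20 for Tnfrsf19. The cause was not tested where none is given by fewer libraries or genes. The remaining 204 comparisons of a result with an alternative kept their direction and call, and counts stayed within 1.5 times. Rnf43, Sp5, Axin2 and Notum had the fewest reads of the members, with 0 to 229 counts per library. For Axin2 the Pd1fl/fl libraries differed by 8.45-fold, though their total counts were close, at 14359990 and 13715837. The sample labels number the Pd1fl/fl samples 1 and 2 and the Pd1cKO-Tie2 samples 1 and 3, and no source says that a number pairs samples. The count columns are numbered 1 and 2 in both genotypes, and libraries of the same column number did not deviate together (r = -0.0263 across 15909 genes, which are not independent replicates). A block on these numbers, chosen after the data were seen and with 1 residual degree of freedom, gave 134 genes higher and 311 lower, 1 further pathway gene higher and 1 lower, and changed no call of a member.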

Other observations

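Some further Wnt pathway genes, named after their values were seen and for this pattern, were like Rnf43 counted in a single library. Lgr6, a receptor for R-spondins, was counted 161 times (11.1 CPM) in Pd1fl/fl replicate 1 and 0 times in both Pd1cKO-Tie2 libraries, and was not listed for Pd1fl/fl replicate 2. Rspo3, an R-spondin ligand known to act in vessel development, was counted 17 times in that library, with the same 0 counts and the same gap elsewhere. R-spondins act by withdrawing ZNRF3 and RNF43 from the cell surface. Other pathway genes were seen in a single library too, Wnt9a with 56, Wnt11 with 10 and Wnt4 with 8 counts in Pd1fl/fl replicate 2, and Wnt10a with 47 and Dkk4 with 5 in Pd1cKO-Tie2 replicate 1. Neither Lgr6 nor Rspo3 passed the filter on low counts, so the main edgeR comparison did not test them. DESeq2 on every gene with a count gave Lgr6 an adjusted p of 0.0658 and Rspo3 an unadjusted p of 0.222. In Pd1fl/fl replicate 1 the neutrophil markers stood at 721 CPM. The fibroblast genes Col1a1 and Lum were counted in that library alone, 152 and 39 times. The part of neutrophils or fibroblasts in these counts was not tested.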
